A study of Mus musculus with 8 samples.

Results

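Genes of the synaptic vesicle and of neurotransmitter exocytosis were followed in the hippocampus of mice that had received FTY720 or saline, with tissue taken after a fear memory test. The set was defined by name, as 46 genes. They encode fusion proteins, synaptotagmins, Doc2b, vesicle membrane proteins, release-site proteins and the proteins that recover vesicles after release. Each gene was represented by its brightest probe set among those annotated to that gene alone, and 42 of the 46 had one, of 12393 genes on the array. Sv2b, Slc17a7, Rims1 and Synj1 had no such probe set and were not analysed here. The FTY720 group was 4 male SCID mice, 12 weeks old, given FTY720 orally in saline at 1 mg/kg on 3 days, and the vehicle group was 4 male SCID mice of the same age given saline orally on the same schedule. FTY720, known as fingolimod, resembles sphingosine and, once phosphorylated, acts at receptors for sphingosine phosphate. Mice of the SCID strain lack mature B and T lymphocytes. Both groups went through contextual fear conditioning and gave tissue 17 hours after their final dose and 1 hour after consolidation was tested, so no mouse without training was compared. Hippocampal RNA of single mice was hybridised to 1 Affymetrix 3' array per mouse. Mice are named by their replicate numbers, 1, 4, 5 and 6 for FTY720 and 13, 14, 15 and 16 for vehicle, and values listed per mouse keep that order.

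Transmitter release rests on a cycle of membrane traffic in the nerve terminal. Synaptobrevin on the vesicle pairs with syntaxin and SNAP25 on the plasma membrane to form the SNARE complex, synaptotagmin senses calcium and complexin holds and then assists the assembled complex, while active-zone scaffolds and Rab3 bring vesicles to the release site. NSF with its SNAP adaptors then takes the spent SNARE complexes apart, and clathrin, its AP2 adaptor and dynamin retrieve the membrane. In the hippocampus these proteins serve the glutamatergic pyramidal and granule cells and the GABAergic interneurons alike, and their amounts shape short-term plasticity at synapses used in learning.

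All values are log2 intensities per probe set, and a difference of 1 is a 2-fold change. Probe sets differ in brightness by design, so levels were compared between mice and not between genes. The probe sets with the highest mean levels in the set were those of Snap25 (13.24), Cplx1 (12.53) and Snap91 (12.07), and those with the lowest were Syt7 (5.60), Bsn (5.99) and Rab3b (6.81). Of the 42, 38 lay above the median level of all genes, 7.17. Array medians spanned 6.68 to 6.72. The array of vehicle 15 was the least like the rest, with a median correlation of 0.994. Vehicle 16 had the steepest loss of 5' signal, with a Gapdh 5' minus 3' difference of -1.46, where the other mice lay between -1.18 and -0.80.

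No vesicle gene differed between FTY720 and vehicle mice after adjustment over all genes, but most lay slightly to the higher side in FTY720 mice. Of the 42, 34 had a difference above 0 and 8 below 0, so 81.0% were above 0, against 53.5% of all genes. Their median difference was 0.080 on the log2 scale, against 0.0072 over all 12393 genes and 0.0097 over the 6196 genes above the median level. The differences ran from -0.58 for Slc17a6, the vesicular glutamate transporter typical of thalamus and brainstem, to 0.27 for Rab3c, a small GTPase of secretory vesicles. In limma the adjusted p values of the 42 lay between 0.726 and 0.995, and 0% of all genes passed an adjusted p of 0.05. At an unadjusted p under 0.05 there were 3 vesicle genes, Ap2b1, Syn2 and Doc2b, all higher in FTY720 mice. That is 7.14% of the 42, close to the 6.64% of all genes, of which 3.86% were higher and 2.78% lower. Values of the groups did not overlap for 1 vesicle gene, Rab3a (2.38%), against 4.49% of all genes. For 41 of the 42 the 95% confidence interval of the difference lay within a 1.5-fold change in either direction, and Slc17a6 was the exception. The number of mice limits this precision.

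**Figure D1:**
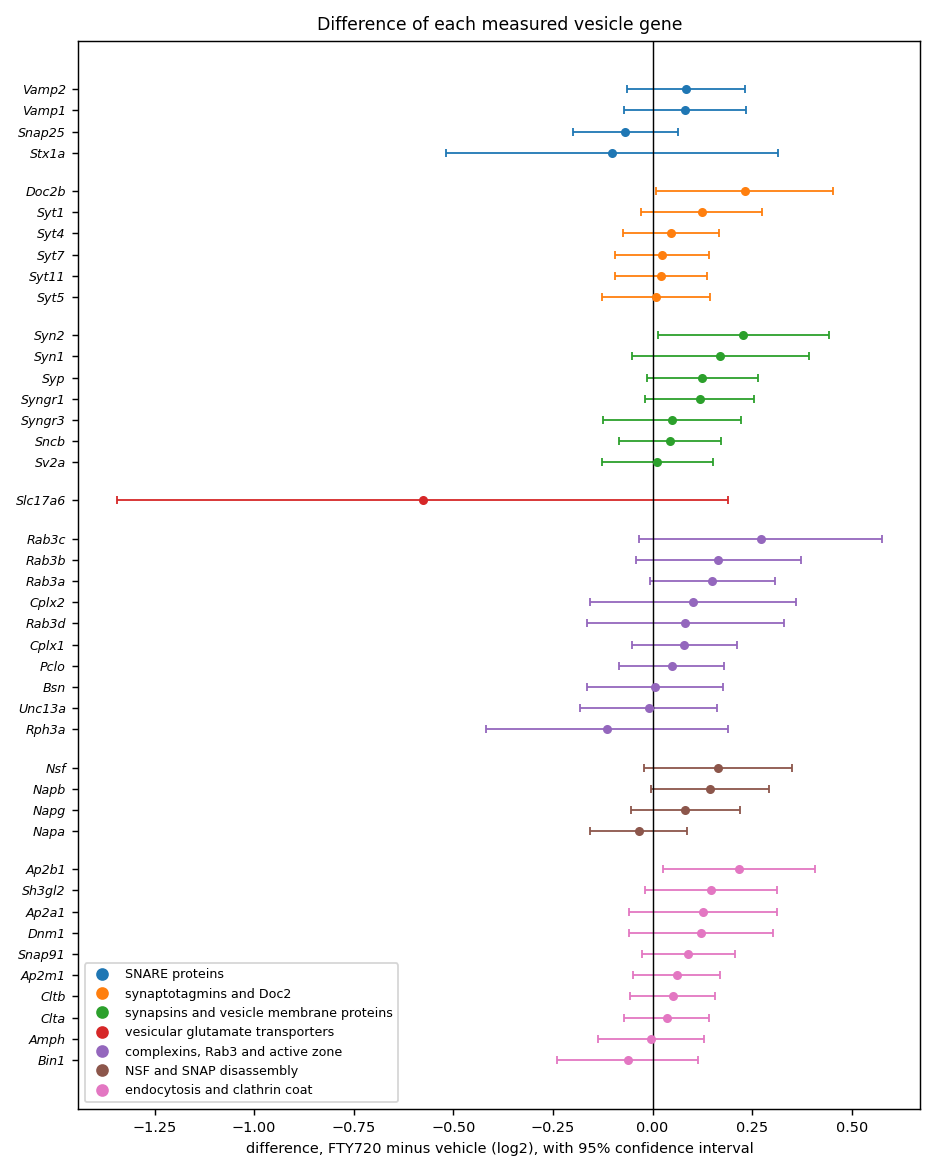
Difference between FTY720 and vehicle mice (x axis, log2) for each of the 42 measured vesicle genes, by role (colour), with points for the limma estimate and bars for its 95% confidence interval (n = 4 mice per group). Points lie above 0 for 34 genes, the intervals of Ap2b1, Syn2 and Doc2b leave out 0, and Slc17a6 has the widest interval.

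Promoter sequences of vesicle genes were read from RefSeq (build GRCm38.p6), as windows of 250 bases before to 50 after the annotated start, and 33 of the 42 genes had an entry. Shown are Ap2b1 (chr11:83302447-83302746, plus strand), Syn2 (chr6:115134652-115134951, plus strand) and Rab3a (chr8:70754453-70754752, plus strand), which had the smallest p values or no overlap, and Syn1 (chrX:20920869-20921168, minus strand), whose window held both TGACGTCA and TTCAGCACC. For Syn2 and Rab3a, which have 2 entries each, the first was used. Capitals mark exact matches, on either strand, to the cAMP response element TGACGTCA bound by CREB, to TTCAGCACC, the longer arm of the element bound by the repressor REST, to the GC box GGGCGG and to TATAAA.
Ap2b1: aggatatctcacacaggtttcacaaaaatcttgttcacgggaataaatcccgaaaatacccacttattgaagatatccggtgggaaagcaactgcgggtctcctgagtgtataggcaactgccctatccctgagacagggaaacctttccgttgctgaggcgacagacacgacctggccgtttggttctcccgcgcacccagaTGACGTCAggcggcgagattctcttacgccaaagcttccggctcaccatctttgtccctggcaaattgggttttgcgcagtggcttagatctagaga
Syn2: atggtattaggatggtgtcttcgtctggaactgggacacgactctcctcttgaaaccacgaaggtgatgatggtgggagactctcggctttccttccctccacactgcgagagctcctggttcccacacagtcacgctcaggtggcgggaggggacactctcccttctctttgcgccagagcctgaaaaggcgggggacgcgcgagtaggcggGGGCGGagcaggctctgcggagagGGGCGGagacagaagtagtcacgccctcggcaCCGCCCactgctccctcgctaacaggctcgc
Rab3a: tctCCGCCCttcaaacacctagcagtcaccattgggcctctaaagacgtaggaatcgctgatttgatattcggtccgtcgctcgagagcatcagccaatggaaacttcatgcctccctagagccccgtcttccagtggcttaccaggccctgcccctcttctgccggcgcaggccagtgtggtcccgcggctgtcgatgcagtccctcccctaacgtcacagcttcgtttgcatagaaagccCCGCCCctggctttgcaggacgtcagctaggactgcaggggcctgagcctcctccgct
Syn1: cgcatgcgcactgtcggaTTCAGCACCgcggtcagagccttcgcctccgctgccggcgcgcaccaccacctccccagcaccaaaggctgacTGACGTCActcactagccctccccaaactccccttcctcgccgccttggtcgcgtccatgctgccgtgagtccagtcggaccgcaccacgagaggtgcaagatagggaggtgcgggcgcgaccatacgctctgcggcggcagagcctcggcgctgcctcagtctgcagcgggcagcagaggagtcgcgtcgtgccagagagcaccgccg
Ap2b1 held 1 TGACGTCA, Syn2 held 3 GC boxes and Rab3a 2, and Syn1 held 1 TGACGTCA and 1 TTCAGCACC. Among the 40 windows of the 33 genes, TGACGTCA occurred in 5 (12.5%), those of Ap2b1, Cltb, Napa, Sh3gl2 and Syn1, against 1.79% of all 32851 windows and 2.51% of the 12566 windows of genes on the array. TTCAGCACC occurred in 2 (5.0%), those of Syn1 and Unc13a, against 0.37% of all windows and 0.39% of those of genes on the array. GGGCGG occurred in 26 (65.0%), against 35.66% of all windows and 55.43% of those of genes on the array, and TATAAA in 1 (2.5%), that of Rab3b, against 13.62% of all windows and 9.81% of those of genes on the array. The 5 genes with TGACGTCA had differences of 0.22 (Ap2b1), 0.051 (Cltb), -0.035 (Napa), 0.15 (Sh3gl2) and 0.17 (Syn1), with Napa on the lower side. A match is a description of these letters, not a site shown to be bound.

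The SNARE proteins, which drive fusion itself, had 2 of 4 genes above 0, a median difference of 0.0064 and none at an unadjusted p under 0.05. Snap25, the plasma membrane SNARE that contributes a pair of helices to the complex, had levels of 13.14, 13.18, 13.20 and 13.30 in FTY720 mice, against 13.28, 13.18, 13.26 and 13.38 in vehicle mice. The groups overlapped, and the difference was -0.068 (SE 0.058). Vamp2, the main synaptobrevin of forebrain vesicles, had 10.73, 10.71, 10.72 and 10.75 in FTY720 mice, against 10.75, 10.67, 10.45 and 10.70 in vehicle mice. Vehicle 15 was lowest and the other mice lay close together, and the difference of 0.084 (SE 0.066) was 0.020 without that mouse. Vamp1, the related synaptobrevin, differed by 0.081 (SE 0.068), or by 0.035 without FTY720 6. Stx1a, the syntaxin that receives the vesicle, had 11.10, 10.90, 11.11 and 11.07 in FTY720 mice, against 11.09, 11.14, 10.64 and 11.73 in vehicle mice. Vehicle 15 was the lowest of the 8 mice and vehicle 16 the highest, so the difference of -0.10 (SE 0.19) was -0.27 without vehicle 15 and 0.091 without vehicle 16.

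The synaptotagmins and Doc2b were all on the higher side in FTY720 mice, 6 of 6. Of these, 1 had an unadjusted p under 0.05, and the median difference was 0.035. Doc2b, a soluble sensor of high calcium affinity linked to spontaneous release, had 8.73, 8.75, 8.53 and 8.56 in FTY720 mice, against 8.52, 8.61, 8.36 and 8.15 in vehicle mice. FTY720 1 and 4 were higher than every vehicle mouse, FTY720 5 and 6 lay among vehicle 13 and 14, and vehicle 16 was lowest. Its difference was 0.23 (SE 0.099, limma adjusted p = 0.743). The value was 0.15 without vehicle 16 and 0.077 without vehicle 15 and 16. The other, dimmer probe set of Doc2b went the other way, at -0.084 (SE 0.12). Syt1, the fast calcium sensor of synchronous release, differed by 0.12 (SE 0.068), or 0.074 without vehicle 15, and its other probe set gave 0.12 (SE 0.089). Syt7, a slower sensor tied to asynchronous release and facilitation, had 5.64, 5.57, 5.58 and 5.64 in FTY720 mice, against 5.61, 5.56, 5.67 and 5.49 in vehicle mice. These values overlapped throughout, with a difference of 0.023 (SE 0.052) and an interval of -0.094 to 0.14. The values of Syt4, Syt5 and Syt11 were 0.047, 0.0093 and 0.021. The direction of Syt5 and Syt7 turned with single mice left out, as Syt5 was -0.011 without FTY720 1, -0.016 without vehicle 15 and -0.022 without vehicle 16, and Syt7 was -0.0081 without vehicle 16. With the Gapdh 5' loss as a covariate Syt5, Syt7 and Syt11 were all below 0. The direction of Syt4 rested on its probe set, as the dimmer one gave -0.19 (SE 0.15).

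Synapsins and vesicle membrane proteins had 7 of 7 measured genes above 0 and a median difference of 0.12, and Syn2 alone had an unadjusted p under 0.05. Syn2, a synapsin that tethers vesicles in the reserve pool, had 11.27, 11.30, 11.27 and 11.32 in FTY720 mice, against 11.29, 11.19, 10.95 and 10.81 in vehicle mice. The FTY720 mice lay within 0.053 of each other and vehicle 13 among them, while vehicle 15 and 16 were far lower. The difference was 0.23 (SE 0.095, limma adjusted p = 0.742), 0.19 without vehicle 15, 0.15 without vehicle 16 and 0.050 without both. Its other probe set gave 0.45 (SE 0.16). Syn1, the synapsin encoded on the X chromosome, differed by 0.17 (SE 0.099) and by 0.069 without vehicle 15. Syp, synaptophysin, an abundant membrane protein of the vesicle, had 8.65, 8.60, 8.67 and 8.68 in FTY720 mice, against 8.65, 8.55, 8.54 and 8.37 in vehicle mice. Vehicle 13 matched the FTY720 mice and vehicle 16 was lowest, and the difference of 0.12 (SE 0.062) was 0.073 without vehicle 16. The synaptogyrins, relatives of synaptophysin, stood at 0.12 (SE 0.061) for Syngr1, or 0.074 without vehicle 15, and 0.049 (SE 0.077) for Syngr3. Sv2a, the vesicle protein bound by levetiracetam, stood at 0.012 (SE 0.062) and Sncb, beta-synuclein, at 0.044 (SE 0.057), or 0.013 without FTY720 6. Sv2a turned below 0 without FTY720 1, FTY720 6 or vehicle 15, to -0.031 without the last, and Syngr3 was -0.0097 without vehicle 16 and -0.078 with the Gapdh 5' loss as a covariate.

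**Figure D2:**
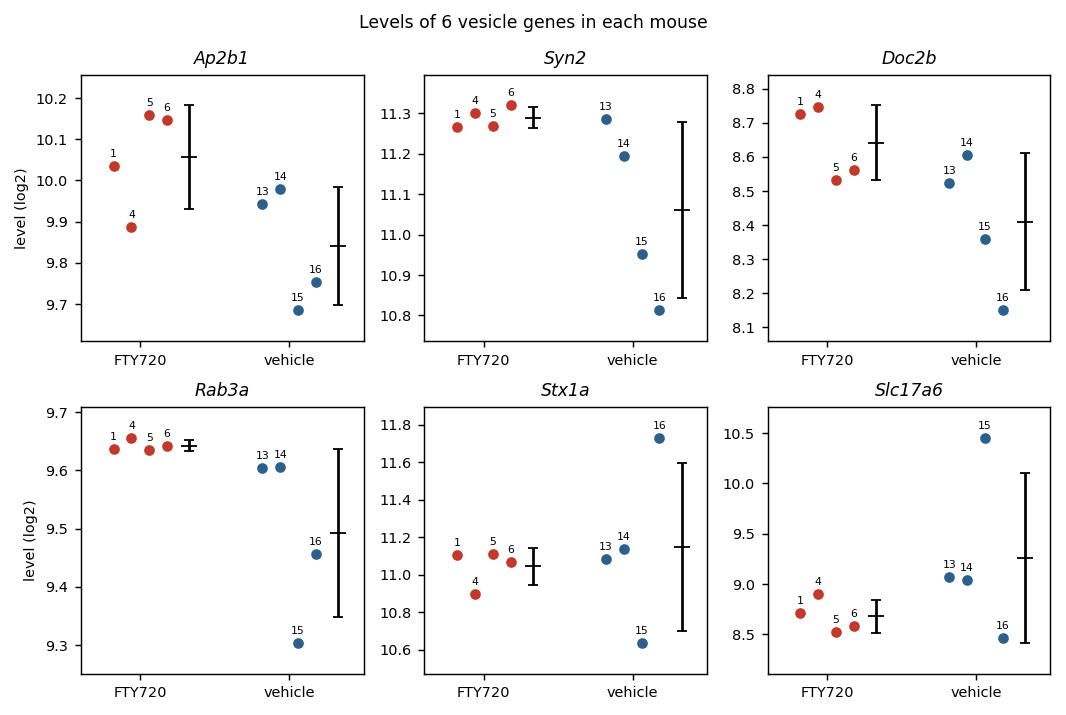
Level (y axis, log2, a scale per gene) of 6 vesicle genes in each mouse, FTY720 left and vehicle right, with the replicate number above each point and the group mean ± SD beside the points (n = 4 mice per group). The FTY720 mice lie close together for Syn2 and Rab3a while vehicle 15 and 16 lie below them, and vehicle 15 has the highest Slc17a6 level, 10.45.

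Slc17a6 had the largest difference of the set, and 1 mouse carried much of it. This gene encodes the vesicular glutamate transporter that marks thalamic and other subcortical neurons and is sparse in adult hippocampal principal cells. Levels were 8.71, 8.90, 8.52 and 8.58 in FTY720 mice, against 9.07, 9.04, 10.45 and 8.47 in vehicle mice. Vehicle 15 exceeded every other mouse by more than 1 log2 unit, vehicle 16 was the lowest of the 8, and the groups overlapped. The difference was -0.58 (SE 0.34, limma adjusted p = 0.803), or -0.18 without vehicle 15, -0.84 without vehicle 16 and -0.37 without both. Its unadjusted p was under 0.05 in 3 fits, those without vehicle 16, without vehicle 15 and 16 together and with the Gapdh 5' loss as a covariate, and in none of them did it pass after adjustment. The second probe set gave -0.56 (SE 0.39). Markers of thalamus and habenula were high in the same mouse. Their list, with 10 of 11 genes measured, had a mean 1.36 above the average of the 8 mice in vehicle 15, where the other mice lay between -0.47 and 0.29. Its summed intensity, as a percentage of the mean of all 8 mice, had a range of 65.9% to 81.7% in FTY720 mice, against 75.1% to 227% in vehicle mice. Rora and Calb2 were its brightest genes, and Calb2 was also counted in the interneuron list. Tcf7l2, a transcription factor of thalamic neurons, had 6.30, 6.03, 6.10 and 5.91 in FTY720 mice, against 7.07, 7.61, 9.23 and 6.19 in vehicle mice, with vehicle 15 highest here too. The part of such tissue in the Slc17a6 difference was not tested. In bulk tissue, fewer cells of a type and less RNA per cell cannot be told apart.

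Complexins, Rab3 proteins and the active zone had 8 of 10 measured genes above 0, none at an unadjusted p under 0.05, and a median difference of 0.081. Rab3a, the main Rab3 GTPase of synaptic vesicles, had 9.64, 9.66, 9.63 and 9.64 in FTY720 mice, against 9.60, 9.61, 9.30 and 9.46 in vehicle mice. Every FTY720 mouse lay above every vehicle mouse, by 0.030 at the closest pair, and the FTY720 SD was 0.0093. The difference was 0.15 (SE 0.070, limma adjusted p = 0.753), with an exact permutation p of 0.0286, two-sided, the smallest that 4 against 4 mice allow. Without vehicle 15 it was 0.087 and without vehicle 15 and 16 0.038. Rab3b had 6.96, 6.73, 6.90 and 6.95 in FTY720 mice, against 6.92, 6.68, 6.81 and 6.49 in vehicle mice. Vehicle 16 was the lowest mouse, and the difference of 0.16 (SE 0.093) was 0.088 without it. Rab3c stood at 0.27 (SE 0.14), or 0.12 without vehicle 16, and Rab3d, the form typical of endocrine and exocrine granules, at 0.083 (SE 0.11), or -0.011 without vehicle 15. The Rab3 effector Rph3a, rabphilin, had 7.51, 7.57, 7.57 and 7.38 in FTY720 mice, against 7.80, 7.69, 7.16 and 7.84 in vehicle mice. Vehicle 15 was again lowest and the other vehicle mice highest, and its difference of -0.11 (SE 0.14) was -0.27 without vehicle 15 and -0.043 without vehicle 16.

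Cplx1, the complexin of fast-releasing terminals, had 12.50, 12.65, 12.47 and 12.64 in FTY720 mice, against 12.53, 12.41, 12.49 and 12.51 in vehicle mice. The groups overlapped and the difference was 0.079 (SE 0.059). Cplx2, the complexin common in forebrain glutamatergic cells, stood at 0.10 (SE 0.12), or -0.026 without vehicle 15, which had the lowest value. Among the scaffolds, Bsn, bassoon, had 5.89, 5.94, 5.91 and 6.24 in FTY720 mice, against 5.99, 5.98, 5.96 and 6.02 in vehicle mice. The groups had nearly the same mean, with a difference of 0.0060 (SE 0.076), and FTY720 6 was the highest of the 8. Pclo, piccolo, stood at 0.048 (SE 0.059), or 0.0041 without vehicle 15, and Unc13a, the priming factor that opens syntaxin for SNARE assembly, at -0.010 (SE 0.077), with an interval of -0.18 to 0.16 and a value of 0.033 without vehicle 16.

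The proteins that take SNARE complexes apart had 3 of 4 genes above 0, none at an unadjusted p under 0.05. Napb, the brain-enriched beta form of the SNAP adaptor, had 11.80, 11.75, 11.82 and 11.85 in FTY720 mice, against 11.77, 11.74, 11.49 and 11.63 in vehicle mice. Vehicle 13 lay within the FTY720 range and vehicle 14 just below it, with vehicle 15 lowest, and the difference was 0.14 (SE 0.066, limma adjusted p = 0.752). All 5 probe sets of Napb were above 0, between 0.028 and 0.25, and the value used was 0.089 without vehicle 15. Napa, the widely expressed alpha form, had 9.41, 9.51, 9.43 and 9.42 in FTY720 mice, against 9.50, 9.52, 9.36 and 9.53 in vehicle mice. Vehicle 15 was lowest, vehicle 13 lay within the FTY720 range, and vehicle 14 and 16 lay just above it. The difference was -0.035 (SE 0.054), or -0.075 without vehicle 15 and -0.019 without vehicle 16. Napg, the gamma form, stood at 0.082 (SE 0.061), or 0.044 without vehicle 15. Nsf, the ATPase that powers the reaction, stood at 0.16 (SE 0.083) and at 0.012 without vehicle 15 and 16. The dimmer probe set of Nsf gave 0.33 (SE 0.096).

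Endocytic genes had 8 of 10 measured members above 0, with 1 at an unadjusted p under 0.05. Ap2b1, the beta subunit of the AP2 adaptor that links cargo to clathrin, had 10.03, 9.89, 10.16 and 10.15 in FTY720 mice, against 9.94, 9.98, 9.69 and 9.75 in vehicle mice. FTY720 1, 5 and 6 were above every vehicle mouse, FTY720 4 lay among them, and vehicle 15 and 16 were lowest. Its difference was 0.22 (SE 0.085, limma adjusted p = 0.726), the smallest p of the set, and 0.096 without vehicle 15 and 16. The other, dimmer probe set of Ap2b1 gave 0.0024 (SE 0.065). The other AP2 subunits stood at 0.13 (SE 0.083) for Ap2a1 and 0.060 (SE 0.049) for Ap2m1, or 0.078 for Ap2a1 without FTY720 6 and 0.034 for Ap2m1 without vehicle 15. The clathrin light chains differed by 0.035 (SE 0.047) for Clta and 0.051 (SE 0.048) for Cltb, which was 0.027 without vehicle 15. Snap91, a clathrin assembly protein of nerve terminals, had 12.06, 12.12, 12.11 and 12.18 in FTY720 mice, against 12.10, 11.94, 12.02 and 12.06 in vehicle mice. FTY720 4, 5 and 6 were above every vehicle mouse and FTY720 1 lay among them, and the difference was 0.090 (SE 0.052). Dnm1, the neuronal dynamin that pinches vesicles off, stood at 0.12 (SE 0.080), or 0.050 without vehicle 15, and Sh3gl2, endophilin, at 0.15 (SE 0.074), with all 3 of its probe sets above 0. Bin1, an amphiphysin relative also made by oligodendrocytes, had 8.49, 8.53, 8.50 and 8.41 in FTY720 mice, against 8.53, 8.60, 8.33 and 8.72 in vehicle mice. Vehicle 16 was highest and vehicle 15 lowest, and the difference was -0.063 (SE 0.079), -0.13 without vehicle 15 and -0.0057 without vehicle 16. Amphiphysin itself, Amph, stood at -0.0034 (SE 0.059).

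Mouse by mouse, vehicle mice spread more than FTY720 mice. The mean of the 42 genes, set against the average of the 8 mice, was 0.026, 0.014, 0.015 and 0.066 in FTY720 mice, against 0.054, -0.010, -0.11 and -0.058 in vehicle mice. The FTY720 mice lay in a narrow band, vehicle 13 inside it, and the other vehicle mice below it. Vehicle 15 had the lowest level of the 8 for 23 of the 42 genes and vehicle 16 for 12, and FTY720 6 had the highest level for 14. Over all 12393 genes vehicle 15 was lowest for 2922, more than any other mouse, and vehicle 16 for 2097, and FTY720 6 was highest for 1811. Vehicle 15 lay below every FTY720 mouse for 30 vesicle genes, vehicle 16 for 26, vehicle 14 for 19 and vehicle 13 for 4. Vehicle 13 lay above every FTY720 mouse for 11 vesicle genes, vehicle 16 for 7, vehicle 14 for 5 and vehicle 15 for 3. The counts below or above every FTY720 mouse were not made over all genes. The SD between mice was larger in vehicle than in FTY720 mice for 35 of the 42 genes, with a median SD of 0.056 in FTY720 and 0.115 in vehicle mice. Over all genes the vehicle SD was the larger for 63.0%, with median SDs of 0.081 in FTY720 and 0.100 in vehicle mice.

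**Figure D3:**
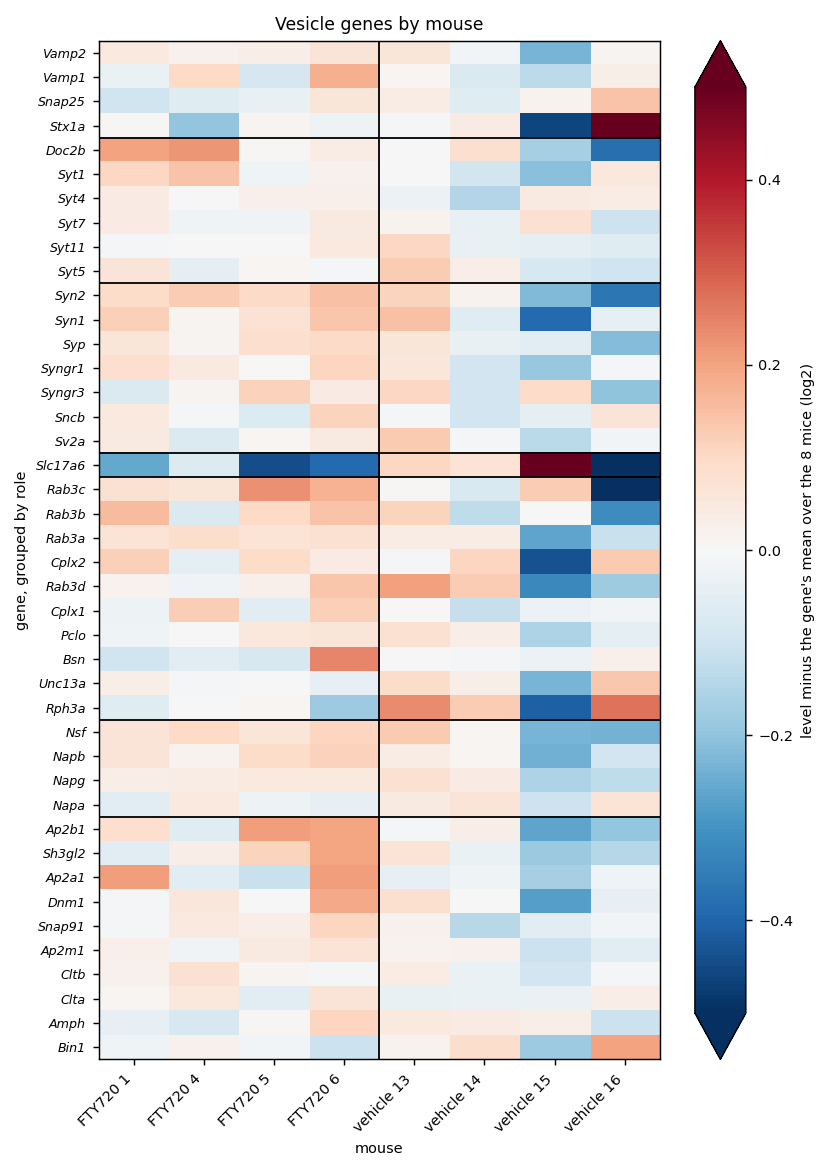
Level of each vesicle gene minus its mean over the 8 mice (colour, log2, with values beyond 0.5 in the end colours) for each mouse (columns, FTY720 left of the line), with genes in rows grouped by role. Blue cells concentrate in vehicle 15, which is lowest for 23 vesicle genes, and in vehicle 16, which is lowest for 12. Over all 12393 genes these mice are lowest for 2922 and 2097. Slc17a6 is high in vehicle 15 and Stx1a in vehicle 16.

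The tilt toward higher values was smaller without vehicle 15, alone or together with vehicle 16, and changed little without vehicle 16 alone. Without vehicle 16 alone, 33 of the 42 genes were above 0 with a median of 0.073, against 53.8% and 0.0075 over all genes. Without vehicle 15, 30 of the 42 genes were above 0 and the median difference was 0.047, against 51.1% and 0.0021 over all genes. Without vehicle 15 and 16 together, 28 were above 0 with a median of 0.022, against 50.1% of all genes. Without FTY720 6 the median was 0.051. In contrast, without vehicle 13, 36 were above 0 with a median of 0.095. At an unadjusted p under 0.05 there were 11 vesicle genes without vehicle 13, against 7.79% of all genes in that fit, and 5 without vehicle 14, against 7.63%. There was 1 without FTY720 4, against 5.67%, and 1 without FTY720 6, against 5.16%. There were 2 without FTY720 1, FTY720 5, vehicle 15 or vehicle 16, where the shares of all genes were 5.40%, 5.64%, 7.18% and 5.75%. The pair without vehicle 15 consisted of Rab3c and Rph3a, and neither Syn2, Doc2b nor Ap2b1 was in it. No gene on the array passed an adjusted p of 0.05 in any of these fits.

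**Figure D4:**
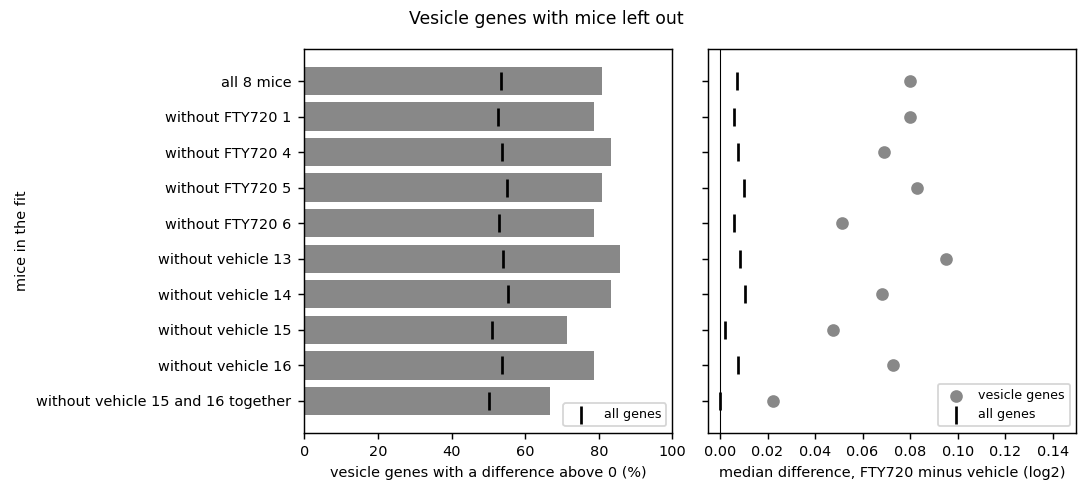
Share of the vesicle genes with a difference above 0 (left, bars, %) and their median difference (right, grey points, log2) with all 8 mice and with mice left out (rows). Black ticks give the same over all genes. The share is 81.0% with all mice, and the median is 0.022 without vehicle 15 and 16, the lowest of the fits shown.

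Markers of tissue and cell types put these values in context. Hippocampal neuron markers were present, among them Calb1 (11.06) and Crym (10.55), the brightest 2 of the 10 measured of 14 listed, while Prox1, a granule cell factor, was dim at 3.29. Their mean was -0.11 in vehicle 15 and -0.22 in vehicle 16, below that of the other 6 mice, as for the vesicle genes. The sum of this list, on the same percentage scale, had a range of 99.4% to 105% in FTY720 mice, against 86.3% to 108% in vehicle mice. Pan-neuronal genes outside the vesicle cycle, 14 of 14 measured and brightest for Snhg11 and Nefl, had sums of 97.9% to 103% in FTY720 mice, against 98.3% to 102% in vehicle mice. Their mean was -0.033 in vehicle 15 and -0.078 in vehicle 16, again the lowest of the 8 mice, and 0.036 in vehicle 13. The list had a median difference of 0.0037, with 7 genes above 0 and 7 below. Oligodendrocyte markers, 9 of 12 measured and led in brightness by Mbp and Cnp, had differences below 0 for 9 of 9, each at an unadjusted p under 0.05 and none at an adjusted one in limma, with sums of 87.0% to 95.4% in FTY720 mice, against 96.2% to 120.2% in vehicle mice. Striatal markers, 7 of 10 measured with Tac1 and Penk brightest, had sums of 55.2% to 65.7% in FTY720 mice, against 56.7% to 338% in vehicle mice, highest in vehicle 15. Neocortical markers, 7 of 8 measured with Mef2c and Lamp5 brightest, had their highest mean, 0.57, in vehicle 16 and their lowest, -0.33, in vehicle 15. The part of these lists, and of the 5' signal loss of vehicle 16, in the vesicle gene values was not tested. The Gapdh 5' minus 3' difference was -1.08, -0.80, -1.05 and -0.85 in FTY720 mice, against -1.09, -1.18, -1.07 and -1.46 in vehicle mice. It thus went partly with treatment, and a fit that includes it cannot fully separate it from treatment. When the fit included it, 33 of the 42 genes were above 0, with a median of 0.062. In that fit 9 genes had the opposite sign, Ap2b1, Syn2 and Doc2b no longer had an unadjusted p under 0.05, and the 1 gene that did was Slc17a6, lower in FTY720 mice, against 4.08% of all genes.

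**Figure D5:**
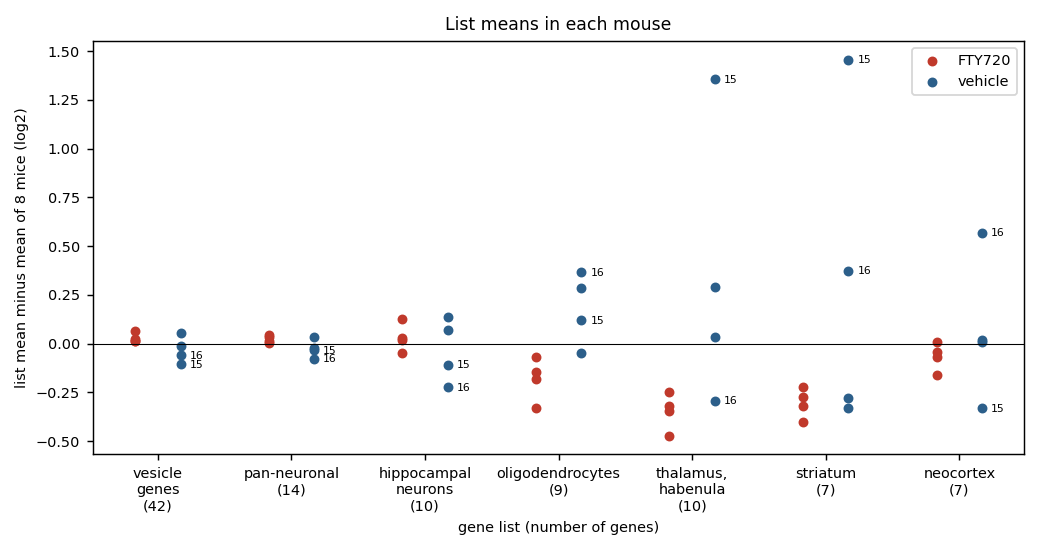
Mean of each gene list minus its average over the 8 mice (y axis, log2), with a point per mouse, FTY720 left of vehicle in each list, and vehicle 15 and 16 labelled by number. Vesicle genes span -0.11 to 0.066, and thalamus and striatum markers stand at 1.36 and 1.46 in vehicle 15.

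For the remaining lists sums are on the same scale. Astrocyte markers (8 of 8 measured, Aldoc and Gja1 brightest) had sums of 96.6% to 101% in FTY720 mice, against 99.3% to 103% in vehicle mice. Microglial markers (8 of 8, Csf1r and P2ry12 brightest) had sums of 91.6% to 104% in FTY720 mice, against 90.4% to 112% in vehicle mice. Endothelial markers (8 of 8, Slco1a4 and Flt1 brightest) had sums of 91.8% to 105% in FTY720 mice, against 94.2% to 108% in vehicle mice. Choroid plexus markers (7 of 8, Ttr and Kl brightest) varied most among all lists in FTY720 mice, with sums of 26.9% to 147% in FTY720 mice, against 54.5% to 163% in vehicle mice. Interneuron markers (10 of 10, Gad1 and Cck brightest) had sums of 96.9% to 103% in FTY720 mice, against 90.9% to 105% in vehicle mice.

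Other probe sets gave a check on the choice of the brightest. In 27 of the 42 genes there were 37 further probe sets, of which 29 had the sign of the one used and 27 were above 0. In 19 of the 27 genes all probe sets had the same sign. Averaged over all probe sets of each gene, the median difference was 0.064 with 32 genes above 0. Under that average Syn2 stood at 0.34 and Nsf at 0.25, while Ap2b1 stood at 0.11, Doc2b at 0.074 and Cltb, a clathrin light chain, at -0.0099.

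A wider list of release and recycling genes outside the set had a median difference of 0.031. Of 114 such genes, 87 were measured, with 51 above 0 and 36 below 0. None passed an adjusted p of 0.05, and 10 had an unadjusted p under 0.05, 7 higher and 3 lower. That is 11.5% of the list, beside 6.64% of all genes. The count was 3 without FTY720 6, 5 without FTY720 1 or vehicle 16, and 6 without FTY720 5, vehicle 14 or vehicle 15. It was 7 without FTY720 4 and 11 without vehicle 13. With single mice left out, 5.16% to 7.79% of all genes had such a p. The count was 2 without vehicle 15 and 16 together, against 5.70% of all genes. Other SNAREs and their binders had 8 of 20 above 0, other synaptotagmins 7 of 15, other vesicle proteins 11 of 15, other active-zone proteins 12 of 17 and other endocytic proteins 13 of 20. The smallest p on the higher side belonged to Syt17, an atypical synaptotagmin, with 9.62, 9.40, 9.77 and 9.70 in FTY720 mice, against 9.27, 9.48, 9.06 and 9.12 in vehicle mice. FTY720 4 lay below vehicle 14 and the other FTY720 mice above every vehicle mouse, and the difference was 0.39 (SE 0.10, limma adjusted p = 0.634), or 0.25 without vehicle 15 and 16. Erc1, an active-zone scaffold also known as ELKS, had 7.63, 7.68, 7.72 and 7.56 in FTY720 mice, against 7.49, 7.46, 7.25 and 7.43 in vehicle mice. Every FTY720 mouse was above every vehicle mouse, with a difference of 0.24 (SE 0.065) that was 0.11 over all its probe sets. Cadps2, a priming factor for dense-core vesicles, stood at 0.24 (SE 0.075). On the lower side were Vamp3, the synaptobrevin of endosomes and glia, at -0.16 (SE 0.063), Stx4a, a plasma membrane syntaxin, at -0.18 (SE 0.075) and Exoc7, an exocyst subunit, at -0.13 (SE 0.054). The Vamp3 groups did not overlap, with 9.49, 9.45, 9.46 and 9.34 in FTY720 mice, against 9.51, 9.64, 9.51 and 9.72 in vehicle mice, and the value was -0.081 over all its probe sets.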

How the data were processed

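Tools named per the submitters' processing notes are RMA, MAS5 and Affymetrix Expression Console, without versions and with no statement of which made the deposited table. The deposited values were taken as log2 from their range and nearly equal array medians. Target was prepared with 100 ng total RNA as input, per the labels' protocols. Of 22690 probe sets, 20380 outside the controls carried a single gene symbol in the platform annotation, for 12393 genes, and no gene was removed for low signal. Differences between FTY720 and vehicle were fitted in limma 3.58.1 (R 4.3.3) by lmFit and eBayes without covariates, adjusted by Benjamini-Hochberg across the 12393 genes. Each SD is between mice (n = 4 per group) and each SE comes from the moderated fit. On simulated data with equal spread in both groups, the fit was tested for recovery of known changes. Its SEs and intervals were not tested there. Members and lists were chosen with earlier results of these data known. Values per mouse are given for the 6 vesicle genes of smallest p in each direction, any without overlap, the 3 of highest and 3 of lowest level and the one of smallest p per role. Named beside them are 3 genes per direction of the wider list and the 2 brightest markers of each list. Tcf7l2 and Prox1 were chosen after their values were seen. No scan date or batch is given in the sources used here.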

Additional observations from a re-analysis of the deposited data

Results flagged for a closer look

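Within groups of 4 mice, the gap of an end value to the nearest other mouse was divided by the range of the group. A value was singled out when this ratio exceeded the 95% critical value of Dixon's ratio for 4 values. Chance does this for about 5 of the 100 groups examined, and 7 values were singled out. Syt11 was highest in vehicle 13 at 11.98, where the other vehicle mice lay between 11.81 and 11.84. Bsn was highest in FTY720 6 at 6.24, where the other FTY720 mice lay between 5.89 and 5.94. Napa was lowest in vehicle 15 at 9.36, where the other vehicle mice lay between 9.50 and 9.53. Amph was lowest in vehicle 16 at 11.20, where the other vehicle mice lay between 11.34 and 11.36. Clta was highest in vehicle 16 at 11.93, where the other vehicle mice lay between 11.85 and 11.86. Ap2a1 was lowest in vehicle 15 at 7.68, where the other vehicle mice lay between 7.81 and 7.83. The mean of the 4 SNARE protein genes was highest in FTY720 6 at 0.069, where the other FTY720 mice lay between -0.035 and -0.018. Of these, 2 were in vehicle 15 and 2 in vehicle 16.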

How the results depend on the processing

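No paired analysis was possible because the groups share no replicate number. The lack of any gene at an adjusted p of 0.05 held under all 17 alternatives, where the lowest adjusted p was 0.114 (limma, trended and robust variance), and 823 genes had an unadjusted p under 0.05. That count was 530 over the 6196 genes above the median level, where the share was 8.55%, against 6.64% of all genes in the main fit. It was 506 with the Gapdh 5' minus 3' covariate, and 640 to 966 with single mice left out. The number of vesicle genes at that p was 3 of 42 with all mice, against 6.64% of all genes. Over genes above the median level it was 5 of 38, against 8.55% of the genes in that fit. It was 6 with trended and robust variance, against 6.71% of all genes, and 0 with array weights, against 6.96%. With the Gapdh covariate it was 1, against 4.08%, and by the exact permutation test 1, against 4.49%. With single mice left out it was 1 to 11, against 5.16% to 7.79% of all genes. With the Gapdh covariate the gene was Slc17a6, and by the exact test it was Rab3a, so that Ap2b1, Syn2 and Doc2b were called in neither. The 10 of the wider list were 6 without the probe sets of suffix _s_at, _x_at or _a_at, against 6.4% of all genes. They were 5 with array weights, against 6.96%, 5 with the Gapdh covariate, against 4.08%, and 5 by the exact test, against 4.49%. They were 2 without vehicle 15 and 16, against 5.7%. With single mice left out they were 3 to 11, against 5.16% to 7.79%. The median vesicle gene difference was 0.022 without vehicle 15 and 16 and 0.037 to 0.081 in the fits that kept all mice. Of 805 refitted differences of single genes, 759 kept their direction and 46, of 17 genes, reversed, and the cause was not tested. With the Gapdh 5' minus 3' covariate, reversed values were those of Stx1a (0.32), Syt5 (-0.011), Syt7 (-0.035), Syt11 (-0.021), Syngr3 (-0.078), Rph3a (0.057), Bsn (-0.037), Unc13a (0.094) and Bin1 (0.060). With the mean of all probe sets, reversed values were those of Syt4 (-0.072) and Cltb (-0.0099). With array weights, reversed values were those of Syt5 (-0.037), Syt11 (-0.017), Sv2a (-0.040), Rab3d (-0.035), Bsn (-0.018) and Pclo (-7.7e-05). Without vehicle 15 and 16 together, reversed values were those of Syt5 (-0.075), Syt11 (-0.023), Sv2a (-0.055), Rab3d (-0.13), Pclo (-0.030) and Napg (-0.017). With quantile normalization, reversed values were those of Bsn alone (-0.0035). Without _s_at, _x_at and _a_at probe sets, reversed values were those of Bin1 alone (0.037). With single mice left out the reversing genes ranged from -0.27 to 0.091 for Stx1a, -0.022 to 0.053 for Syt5, -0.0081 to 0.053 for Syt7, -0.0097 to 0.092 for Syngr3, -0.031 to 0.057 for Sv2a, -0.026 to 0.16 for Cplx2, -0.011 to 0.17 for Rab3d, -0.074 to 0.041 for Bsn, -0.089 to 0.033 for Unc13a and -0.040 to 0.023 for Amph. The table gives no detection calls, so signal over background was not measured for any gene.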
